A study of Homo sapiens with 6 samples.

Results

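The genes described here are 43 genes of protein folding and quality control in the endoplasmic reticulum (ER) and of its stress response, the unfolded protein response. They were taken by name, from a list chosen with earlier results of these data known. Probe sets that the platform annotation maps only to 1 of these genes were used. Each gene was read on its set with the highest mean over the 6 arrays. All 43 had such a set, among 18129 genes measured in all. The cells were labelled UMUC3-c31; UMUC3 is an established line from a human bladder carcinoma. The labels do not say how c31 was made or whether it is 1 clone. Both groups first spent 24 h in charcoal-stripped serum, which lacks steroid hormones. The 3 control cultures then received ethanol vehicle for 24 h and the 3 treated cultures the synthetic androgen R1881 at 10 nM. Per the design text, the 3 cultures of each condition are biological replicates, and the comparison asks which transcripts differ after androgen treatment. Values are log2 array signals, and a difference between groups is R1881 minus vehicle. The 6 array medians lay between 5.49 and 5.51. On the second principal component of all genes vehicle replicate 1 was separate from its group, at 11.0 against -8.21 and -6.99. Without that array the signs of 5 uncalled members turned: DNAJB9 stood at 0.065, SYVN1 at -0.005, PPP1R15A at -0.015, ERN1 at 0.04 and SPCS3 at 0.01. Further values without it are given for CALR, HYOU1 and SEL1L.

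Proteins that enter the secretory pathway are threaded into the ER, where chaperones of the Hsp70 and Hsp90 families, the lectin chaperones calnexin and calreticulin and the disulphide isomerases fold them. Chains that fail to fold are handed to ER-associated degradation, which moves them back to the cytosol for the proteasome. When unfolded chains accumulate, the sensors IRE1, PERK and ATF6 lower protein synthesis and induce genes of folding and degradation, the latter largely through XBP1 and the cleaved form of ATF6. In prostate cells, androgen receptor activity has been linked to the IRE1 and XBP1 branch. Arrays measure transcripts only. They do not report XBP1 splicing, sensor phosphorylation or ATF6 cleavage.

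Many genes of this response carry known promoter elements. The ER stress response element (ERSE) is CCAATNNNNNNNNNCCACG, and its shorter relative ERSE-II is ATTGGNCCACG. Both were searched on both strands in the 250 bases before each RefSeq start site (GRCh38.p14). For 39 of the 43 genes 48 such windows were found, as a gene can have several start sites. Distances are counted from the start site of the window that holds the match. For CANX, PDIA6 and CREB3L2 that site lies inside the full span of the gene. ERSE stood in the windows of 8 of the 39 genes and ERSE-II in those of 3 others. Of all 35116 promoter windows 0.074% and 0.0513% held them, a share of windows and not of genes. The matches are shown because these are the elements best known from the response. Capitals mark the fixed bases, and each is read along the motif's own strand.
HSPA5 chr9:125241391-125241409 (minus strand), 48 bases before the start: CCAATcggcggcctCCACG
HSP90B1 chr12:103930216-103930234 (plus strand), 176 bases before the start: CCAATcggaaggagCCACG
HSP90B1 chr12:103930321-103930339 (minus strand), 71 bases before the start: CCAATcgcgccgcaCCACG
CRELD2 chr22:49918554-49918572 (minus strand), 62 bases before the start: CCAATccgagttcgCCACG
CALR chr19:12938384-12938402 (minus strand), 207 bases before the start: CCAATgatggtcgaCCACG
CANX chr5:179698778-179698796 (plus strand), 133 bases before the start: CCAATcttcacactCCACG
PDIA6 chr2:10812853-10812871 (minus strand), 68 bases before the start: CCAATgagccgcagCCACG
ERO1B chr1:236282183-236282201 (plus strand), 225 bases before the start: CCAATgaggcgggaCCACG
XBP1 chr22:28800603-28800621 (minus strand), 34 bases before the start: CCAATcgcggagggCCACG
HYOU1 chr11:119057380-119057390 (plus strand), 175 bases before the start: ATTGGaCCACG
HYOU1 chr11:119057274-119057284 (plus strand), 69 bases before the start: ATTGGaCCACG
SDF2L1 chr22:21642114-21642124 (minus strand), 178 bases before the start: ATTGGtCCACG
HERPUD1 chr16:56932025-56932035 (plus strand), 107 bases before the start: ATTGGgCCACG

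HSP90B1 and HYOU1 held 2 matches each. The UPR element, TGACGTGG, was found before HYOU1 and DNAJC10 (0.612% of all windows), and in HYOU1 it overlaps the ERSE-II match farther from the start, since CCACG is part of both. An amino acid response element, TTGCATCA, was found before HERPUD1 (0.772% of windows). The palindromic androgen response element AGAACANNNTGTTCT was in none of the members' windows and in 0.00285% of all windows, and its single arm AGAACA stood only before CREB3L2 (12.4% of all windows). A letter match is a description and does not show that a factor binds.

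The 250 bases before 4 genes are printed as context for genes described below. HSPA5 is the standard readout of ER stress and CALR and HYOU1 are folding genes with these elements. CLGN is the only member that passed the test described below. Capitals mark ERSE or ERSE-II, and each window reads 5′ to 3′ along the gene, ending at the base before its start site. CLGN held neither element.
HSPA5 chr9:125241344-125241593 (minus strand): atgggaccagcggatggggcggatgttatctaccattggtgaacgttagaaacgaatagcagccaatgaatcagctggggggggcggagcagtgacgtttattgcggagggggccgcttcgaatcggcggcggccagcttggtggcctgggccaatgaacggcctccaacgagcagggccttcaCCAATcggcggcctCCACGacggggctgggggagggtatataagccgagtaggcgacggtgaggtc
CALR chr19:12938359-12938608 (plus strand): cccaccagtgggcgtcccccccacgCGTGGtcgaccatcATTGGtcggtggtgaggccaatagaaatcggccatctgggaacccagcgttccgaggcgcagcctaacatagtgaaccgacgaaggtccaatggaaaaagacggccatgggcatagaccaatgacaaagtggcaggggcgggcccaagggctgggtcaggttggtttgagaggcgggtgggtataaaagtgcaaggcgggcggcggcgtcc
HYOU1 chr11:119057206-119057455 (minus strand): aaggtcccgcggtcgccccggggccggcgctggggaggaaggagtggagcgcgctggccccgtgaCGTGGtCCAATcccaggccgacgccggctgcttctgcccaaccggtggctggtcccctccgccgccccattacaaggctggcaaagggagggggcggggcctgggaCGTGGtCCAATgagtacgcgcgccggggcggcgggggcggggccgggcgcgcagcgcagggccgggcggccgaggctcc
CLGN chr4:140427649-140427898 (minus strand): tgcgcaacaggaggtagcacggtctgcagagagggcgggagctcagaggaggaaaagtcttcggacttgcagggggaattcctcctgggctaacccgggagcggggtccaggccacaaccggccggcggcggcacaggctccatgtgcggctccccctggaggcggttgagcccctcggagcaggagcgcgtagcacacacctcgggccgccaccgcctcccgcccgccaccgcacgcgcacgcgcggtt

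Of the 43 genes, 1 passed the test for a difference with R1881. CLGN, which encodes the lectin chaperone calmegin, fell to 0.566 times its vehicle level. None of the other 42 genes passed the test, yet most of them were slightly higher on the treated arrays: 36 of 43 were higher by sign, with a median log2 change of 0.06 and a middle range of 0.03 to 0.14. Over all 18129 genes the median was 0 and 49.9% were higher by sign. Over the 11049 genes above the background level, among which lay 41 of the members, the median was -0.01 and 47.0% were higher. The test was limma's moderated fit over all genes with Benjamini-Hochberg adjustment at 0.05, and it called 2.42% of all genes, 1.60% higher and 0.816% lower. The members' 1 call of 43, or 2.33%, is near that background. The labels do not give the androgen receptor status of the cells. FKBP5, whose product binds steroid receptor complexes and which androgens and other steroids commonly induce, rose from 8.55 to 10.04 on the log2 scale (adjusted p = 3.22e-05).

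The small upward differences were regular between arrays. In 14 of the 43 genes (32.6%) all 3 treated values lay above all 3 vehicle values, against 8.53% of all genes and 11.1% of those above background. In 3 genes all treated values lay below, against 9.93% of all genes. An unadjusted limma p under 0.05 was reached by 13 higher members, or 30.2%. The share was 7.07% of all genes, 8.72% of those above background and 8.56% of the other pathway genes. It was reached by 2 lower members, against 7.19% of all genes. Leaving CLGN aside, the median of the 42 genes, each set against its own vehicle mean, was 0.06, 0.09 and 0.07 on the 3 treated arrays and between -0.01 and 0.00 on the vehicle arrays. The centring fixes the level of the vehicle arrays, so for them only the spread can be read. The members were chosen with earlier results of these data known, so these shares and medians describe the list and test nothing. These genes share their arrays, so they are not separate observations of the treatment. The error was also small enough to bound them: 30 of the 42 genes had 95% confidence intervals that stayed within 1.2-fold in both directions, and 41 of 42 within 1.5-fold. The exception to the latter was CALR. An exact permutation test of 3 against 3 arrays cannot give a p below 0.10, so single genes rest on the fit across all genes.

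**Figure D1:**
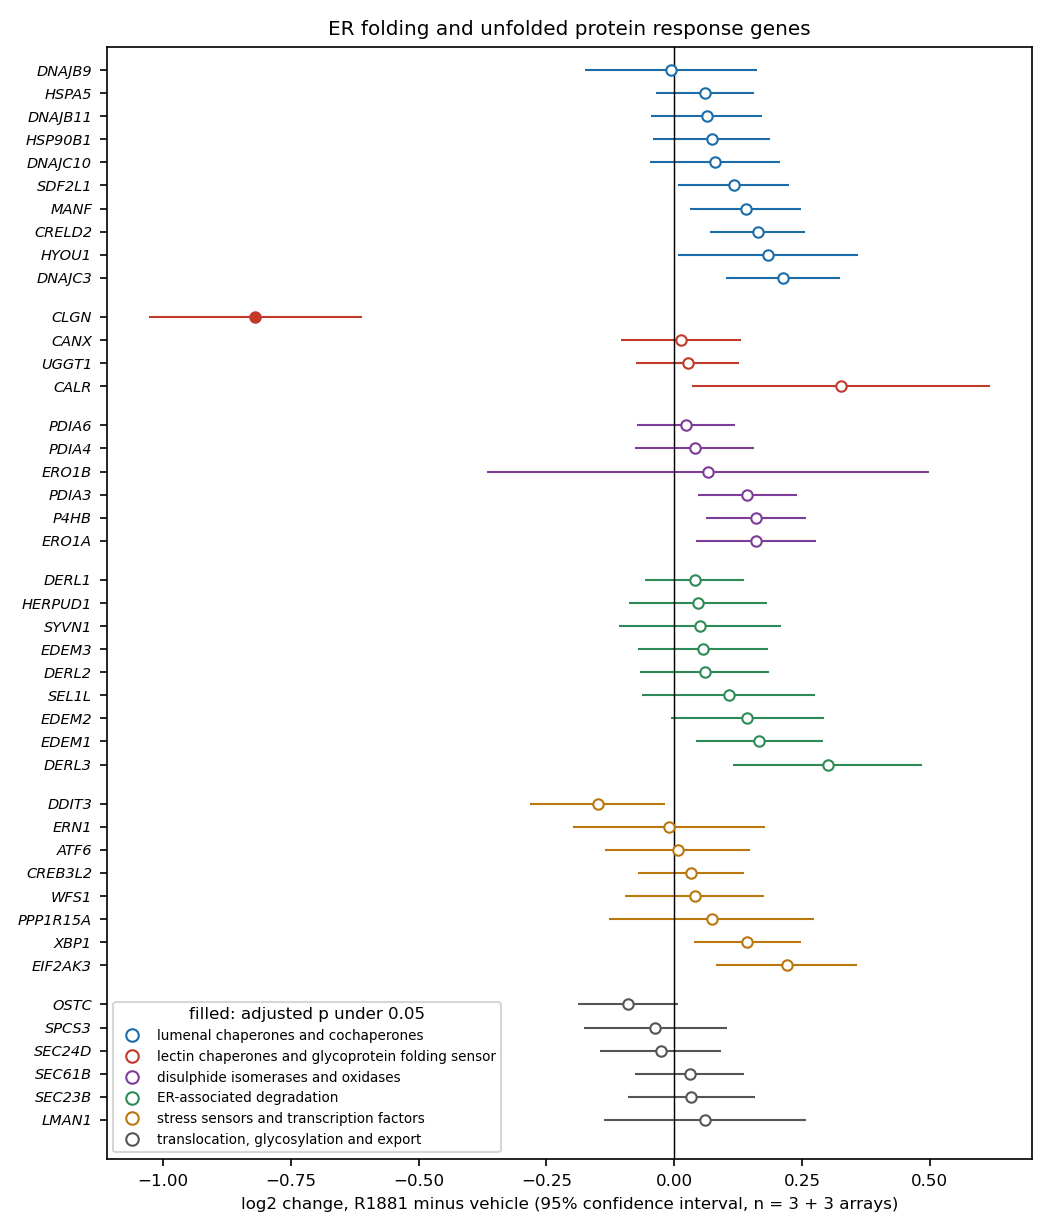
Log2 change (R1881 minus vehicle, horizontal axis) of each of the 43 genes with its 95% confidence interval from the limma fit, 3 arrays per group, grouped and coloured by role. CLGN at -0.82 is the only filled point (adjusted p under 0.05), and 36 of the 43 points lie to the right of 0.

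CLGN is the membrane-bound lectin chaperone best known from the testis and is a paralogue of calnexin. Its brightest probe set read 7.12, 7.14 and 7.19 on the vehicle arrays and 6.13, 6.47 and 6.39 on the R1881 arrays. The groups lay far apart, and R1881 replicate 1 was the lowest. The vehicle mean was 7.15 ± 0.04 and the treated mean 6.33 ± 0.18 (SD, n = 3). The log2 difference was -0.82 ± 0.09 (SE) with a limma adjusted p of 0.00473 and a 95% interval of 0.490 to 0.654 times the vehicle level. All 5 CLGN probe sets were lower, by -0.61 to -0.85, none overlapped between groups, and 4 of the 5 passed when all 49193 probe sets were tested, where 1.54% of all sets passed. The fall held without any 1 of the arrays, between -0.89 and -0.72 with an adjusted p of at most 0.0369.

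Calnexin did not pass the test. CANX, the general membrane-bound lectin chaperone, read 12.90, 12.81 and 12.83 with vehicle and 12.92, 12.83 and 12.83 with R1881. The 2 groups interleaved, and the change was 0.01 ± 0.05 (adjusted p = 0.926; 95% interval 0.931 to 1.09 times vehicle). Of its 8 probe sets 4 were higher and 4 lower, between -0.10 and 0.01. Within each array the log2 difference CLGN minus CANX was -5.78, -5.67 and -5.64 with vehicle and -6.79, -6.36 and -6.44 with R1881, a shift of -0.83 (exact two-sided permutation p = 0.1, the smallest possible here). As 2 different probe sets are involved, only the shift can be read and not the difference in level.

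The other glycoprotein folding genes did not pass. CALR, the soluble lumenal counterpart of calnexin, read 8.12, 8.55 and 8.50 with vehicle and 8.57, 8.81 and 8.77 with R1881. Its lowest treated value lay only just above its highest vehicle value. The change of 0.33 ± 0.12 (adjusted p = 0.297) was the largest upward difference among the members, and it came to 0.19 without vehicle replicate 1, the low array. Both CALR probe sets were higher, by 0.33 and 0.17. UGGT1, which senses unfolded glycoproteins and returns them to calnexin, read 7.13, 7.14 and 7.14 against 7.14, 7.14 and 7.21, or 0.03 ± 0.04 (adjusted p = 0.812). Of the 3 UGGT1 probe sets 1 was higher and 2 were lower.

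**Figure D2:**
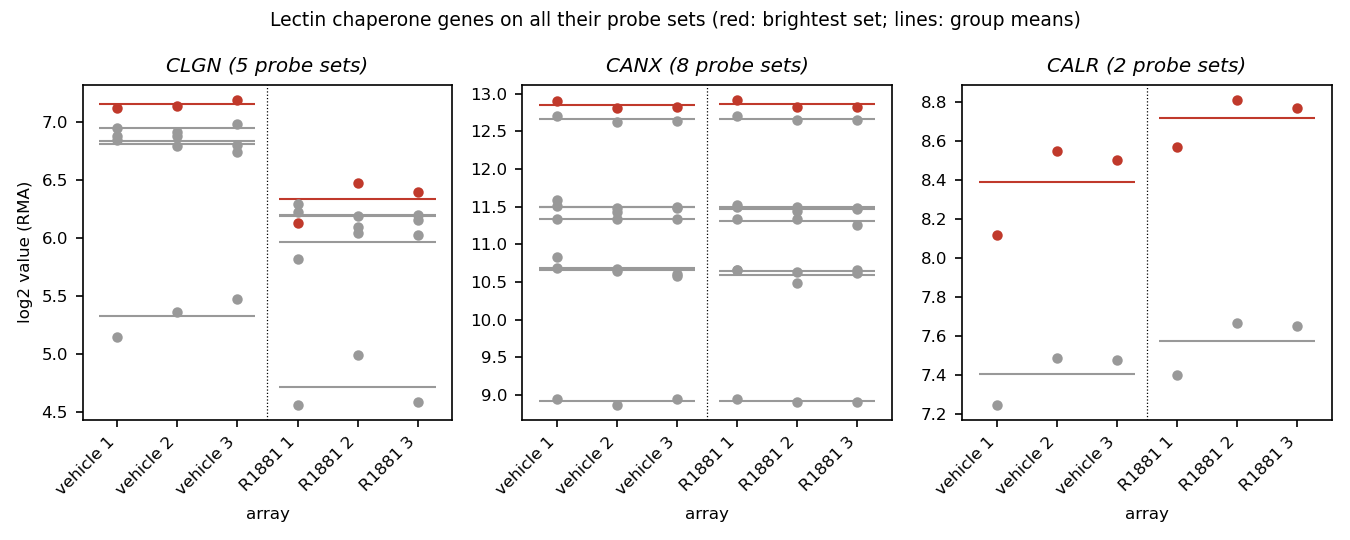
Log2 RMA value (vertical axis, a different range in each panel) of every probe set of CLGN, CANX and CALR on the 6 arrays (horizontal axis), with lines at the means of each group of 3 arrays and the brightest set in red. All 5 CLGN sets lie lower on the R1881 arrays, the 8 CANX sets differ by -0.10 to 0.01 between group means, and vehicle replicate 1 is low on both CALR sets.

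Among the 10 lumenal chaperones and cochaperones, none passed the test, 9 were higher by sign and 6 had non-overlapping groups, all upward, with a median change of 0.10. Beside this and the following role groups stand the shares over all genes, 49.9% higher by sign and 8.53% with higher, non-overlapping groups. Above background these shares were 47.0% and 11.1%. HSPA5 encodes BiP, the ER Hsp70 whose transcript is the usual readout of ER stress. Its brightest set read 12.67, 12.68 and 12.69 with vehicle and 12.71, 12.76 and 12.75 with R1881. The groups did not overlap, but they differed by only 0.06 ± 0.04 (adjusted p = 0.547), and the 95% interval ended at 1.11 times vehicle. The 6 HSPA5 sets ranged from -0.01 to 0.16, and 4 of them were higher. The largest of these differences came from the dimmest set, at a mean of 8.22. HSP90B1, the ER Hsp90 known as GRP94, stood at 0.07 ± 0.05 with 5 of 7 sets higher.

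DNAJC3, the cochaperone P58IPK that also restrains PERK, was at 8.54, 8.61 and 8.56 with vehicle and at 8.76, 8.84 and 8.75 with R1881. Its groups lay clearly apart, and at 0.21 ± 0.05 (adjusted p = 0.0825) it came nearest to the threshold of all the upward differences. CRELD2, a secreted stress-induced protein with isomerase activity, read 9.48, 9.50 and 9.50 against 9.64, 9.67 and 9.66. The groups were apart by 0.16 ± 0.04 (adjusted p = 0.110). Both genes passed when dim genes were left out of the test (adjusted p = 0.0282 and 0.0343) or with a trended, robust prior variance (0.0194 and 0.0174).

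MANF, a secreted factor that stabilises BiP complexes, read 11.15, 11.22 and 11.22 against 11.30, 11.38 and 11.33, a difference of 0.14 ± 0.05 (adjusted p = 0.234, and 0.0418 with the trended prior). SDF2L1, a partner of ER J-proteins, read 9.20, 9.29 and 9.22 against 9.34, 9.33 and 9.39, or 0.12 ± 0.05 (adjusted p = 0.318). Both genes had all treated arrays above all vehicle arrays. HYOU1, the large Hsp70-like nucleotide exchange factor of BiP, stood at 0.18 ± 0.07 (adjusted p = 0.334) and at 0.10 without vehicle replicate 1, where it read 9.53 against 9.76 and 9.79 on the other vehicle arrays. It was higher on 8 of its 9 probe sets. Of the other J-protein genes, DNAJB11 stood at 0.06 ± 0.05, DNAJC10 at 0.08 ± 0.05 and DNAJB9 at -0.01 ± 0.07. Their vehicle and treated arrays overlapped, and differences between these genes were not tested.

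**Figure D3:**
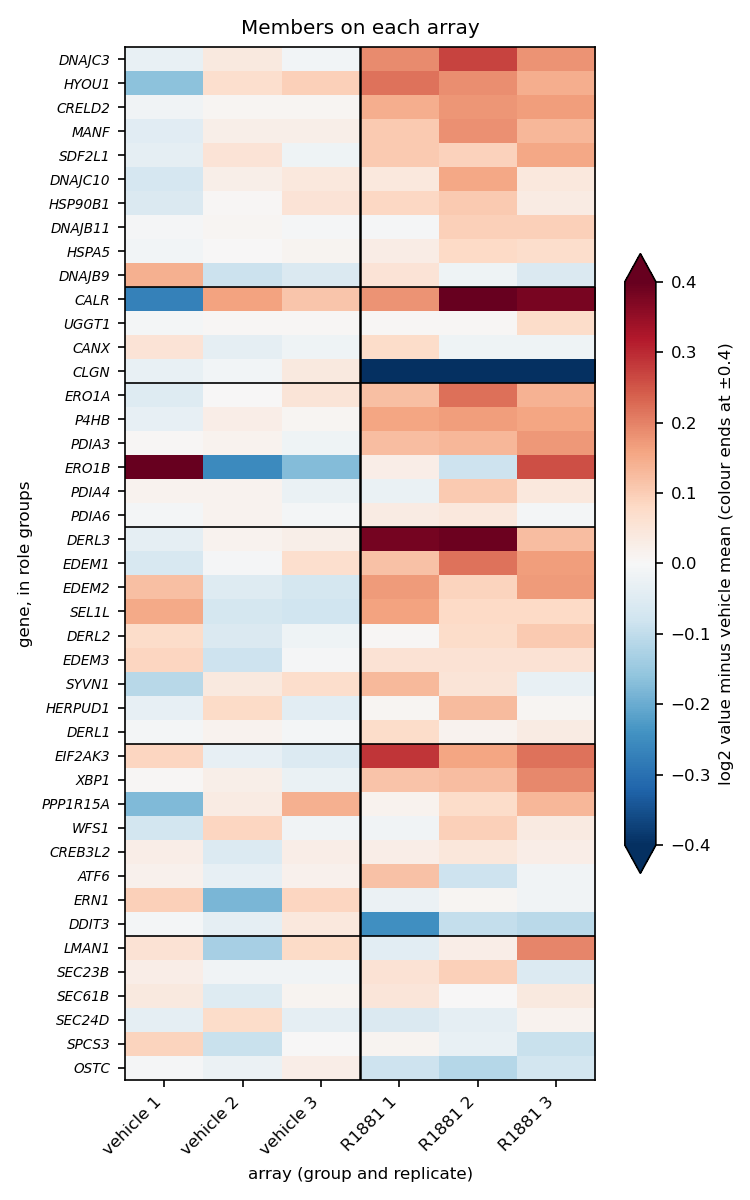
Log2 value minus the gene's vehicle mean (colour scale, ending at ±0.4) for the 43 genes (rows, in role groups) on each of the 6 arrays (columns). Most rows turn red on all 3 R1881 arrays by small amounts, CLGN is below the end of the scale there, and CALR, HYOU1 and ERO1B show vehicle replicate 1 apart from the other vehicle arrays.

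All 6 genes of disulphide formation were higher by sign and none passed, with a median of 0.11. The 6 include ERO1B, which lay below background. P4HB, the classical protein disulphide isomerase, read 11.49, 11.55 and 11.53 with vehicle and 11.68, 11.69 and 11.68 with R1881. The treated arrays were nearly equal and all above the vehicle arrays, and the difference was 0.16 ± 0.04 (adjusted p = 0.129; 0.0433 without dim genes and 0.00702 with the trended prior). All 6 P4HB probe sets were higher, by 0.07 to 0.18. PDIA3, the isomerase that works with calnexin and calreticulin, read 11.57, 11.58 and 11.55 against 11.69, 11.70 and 11.74, or 0.14 ± 0.04 (adjusted p = 0.173, and 0.0125 with the trended prior). PDIA4, another isomerase, read 11.60, 11.60 and 11.56 against 11.56, 11.69 and 11.63, or 0.04 ± 0.05. It and PDIA6, at 0.02 ± 0.04, had overlapping groups.

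The isomerases are re-oxidised by the ERO1 enzymes. ERO1A, which also responds to low oxygen, read 9.53, 9.58 and 9.63 with vehicle and 9.70, 9.80 and 9.72 with R1881. The groups were apart by 0.16 ± 0.05 (adjusted p = 0.209). Its other probe set differed more, at 8.60, 8.42 and 8.54 against 8.90, 8.87 and 8.83, a change of 0.35 that passed when every set was tested (adjusted p = 0.0454). The mean of both sets rose by 0.25 (adjusted p = 0.0233), so the call for ERO1A depends on the probe set read. ERO1B lay below the background level of 4.99 in both group means, with single values between 4.38 and 5.06, and is not interpreted.

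All 9 ER-associated degradation genes were higher by sign and none passed, with a median of 0.06. DERL3, a derlin of the retrotranslocation channel that is typical of secretory tissues, was dim: it read 5.40, 5.45 and 5.46 with vehicle and 5.82, 5.83 and 5.56 with R1881. R1881 replicate 3 lay nearer to the vehicle arrays than the other treated arrays did. The difference was 0.30 ± 0.08 (adjusted p = 0.137), and without R1881 replicate 3 it was 0.39 and passed (adjusted p = 0.0294). All 4 DERL3 sets were higher, by 0.03 to 0.32, and 1 dimmer set passed when every set was tested (adjusted p = 0.0432). That set had means of 4.75 with vehicle and 5.07 with R1881, so it was above the background level only with R1881. The dimmest DERL3 set, at means of 4.48 and 4.51, was below background in both groups. The DERL3 relatives DERL1 and DERL2 stood at 0.04 ± 0.04 and 0.06 ± 0.05.

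EDEM1, which removes mannose from glycoproteins bound for degradation, read 9.39, 9.45 and 9.52 against 9.57, 9.67 and 9.62, or 0.17 ± 0.05 (adjusted p = 0.214). Its groups did not overlap. EDEM2, of the same family, read 7.48, 7.31 and 7.29 against 7.53, 7.45 and 7.53, or 0.14 ± 0.06, and EDEM3 stood at 0.06 ± 0.05. HERPUD1, a scaffold of the degradation complex that ER stress strongly induces, stood at 0.05 ± 0.06. The ubiquitin ligase gene SYVN1 stood at 0.05 ± 0.07. Its product lies at the core of this machinery. Its partner SEL1L read 9.44, 9.22 and 9.21 against 9.45, 9.37 and 9.37, or 0.11 ± 0.07, and stood at 0.18 without vehicle replicate 1, the high array. In EDEM2, EDEM3, HERPUD1, SYVN1 and SEL1L the vehicle and treated arrays overlapped.

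Of the 8 stress sensors and transcription factors none passed, 6 were higher by sign, and the median was 0.04. EIF2AK3, the gene of PERK, read 8.17, 8.05 and 8.03 with vehicle and 8.37, 8.24 and 8.30 with R1881. That is 0.22 ± 0.06 (adjusted p = 0.142, and 0.0497 with the trended prior), and all 3 of its probe sets were higher, by 0.16 to 0.22. XBP1, the transcription factor spliced by IRE1, read 8.87, 8.89 and 8.84 against 8.98, 8.99 and 9.06. Its single probe set gave 0.14 ± 0.04 (adjusted p = 0.206), and whether it reads the spliced form is not known here. ERN1, the gene of IRE1 itself, lay below background at 4.16 to 4.44. ATF6 stood at 0.01 ± 0.06.

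DDIT3, which encodes the pro-apoptotic factor CHOP at the end of the PERK branch, pointed the other way. It read 7.10, 7.07 and 7.15 with vehicle and 6.86, 7.01 and 7.0 with R1881. The treated values were all below the vehicle values, with a difference of -0.15 ± 0.06 (adjusted p = 0.293), and both probe sets were lower. PPP1R15A, the GADD34 phosphatase subunit that reverses the PERK block, read 7.20, 7.41 and 7.52 against 7.39, 7.45 and 7.51, or 0.07 ± 0.08. WFS1 and CREB3L2 stood at 0.04 ± 0.06 and 0.03 ± 0.04. In the latter 3 genes the groups overlapped.

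The 6 genes of translocation, glycosylation and export were evenly divided, with 3 higher and 3 lower by sign, a median of 0.00 and none past the test. OSTC, a subunit of oligosaccharyltransferase, read 10.54, 10.52 and 10.57 with vehicle and 10.46, 10.43 and 10.47 with R1881. It was lower on every treated array, by -0.09 ± 0.04 (adjusted p = 0.383). LMAN1, the cargo receptor for export, read 8.36, 8.17 and 8.38 against 8.26, 8.33 and 8.50, or 0.06 ± 0.08. The translocon gene SEC61B read 11.84, 11.75 and 11.81 against 11.85, 11.80 and 11.84, or 0.03 ± 0.05. In both genes the groups overlapped. The coat gene SEC23B read 9.56, 9.52 and 9.52 against 9.59, 9.63 and 9.48, or 0.03 ± 0.05. The other SEC23B probe set, at means of 7.42 with vehicle and 7.30 with R1881, pointed the other way (-0.12). SEC24D, the partner of SEC23B, stood at -0.03 ± 0.05, and the signal peptidase gene SPCS3 at -0.04 ± 0.06. The whole range of this role group was -0.09 to 0.06.

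The changes can be listed by the elements printed above. The difference between the lists was not tested. The 11 genes with ERSE or ERSE-II were all higher by sign, with a median of 0.07, a range of 0.01 to 0.33 and no call. They include ERO1B, which lay below background, and CANX at 0.01, whose groups interleaved. Of all members 36 of 43 were higher by sign, and of all genes 49.9%. The 28 genes with a promoter window and neither element had a median of 0.05, with 22 higher by sign and CLGN as their only call. Of all measured genes, 18 had ERSE before a start site, 14 of them higher by sign with a median of 0.07 and none called, but 8 of the 18 are the members above. ERSE-II stood before 15 measured genes, 7 of them higher by sign with a median of -0.03 and 1 called, and 3 of the 15 are members.

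**Figure D4:**
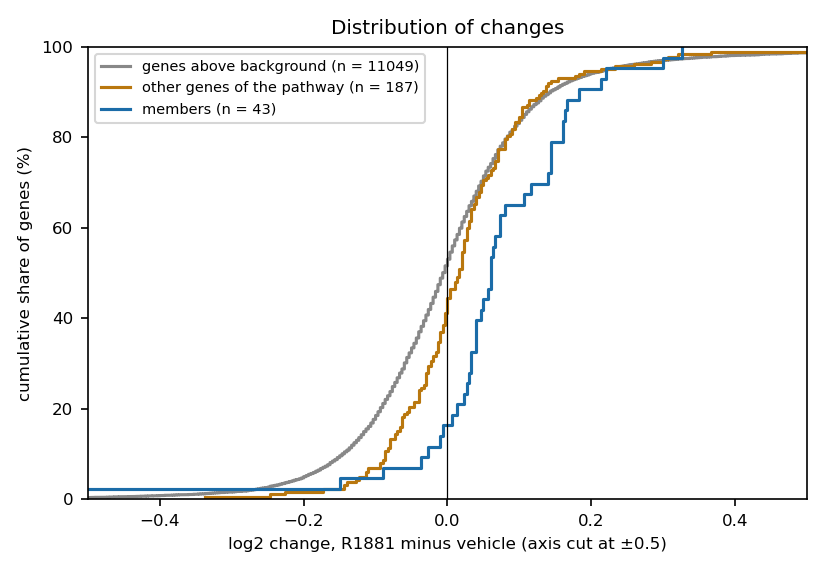
Cumulative share of genes (vertical axis, percent) against the log2 change, R1881 minus vehicle (horizontal axis, shown from -0.5 to 0.5), for the 43 members, 187 other measured genes of the pathway and 11049 genes above background. The curve of the members lies to the right of the others through the middle of the range, where its median is 0.06 against 0.02 and -0.01.

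Around these genes, 197 others of the same pathway were listed by role, of which 187 were measured. Their median change was 0.02, 104 were higher by sign, and 5 passed the test, or 2.67%: 4 rose and 1 fell. Among 36 other folding genes only FKBP7, an ER prolyl isomerase, was called. It fell from 7.40 to 7.06, by 0.34 on the log2 scale (adjusted p = 0.0201). None of the 29 other degradation genes passed, with NGLY1, the cytosolic glycanase, at 0.26 ± 0.06 (adjusted p = 0.119) and SELENOS, a partner of the derlins, at 0.13 ± 0.04.

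None passed among 37 other translocation and glycosylation genes, 34 other export genes or 8 receptors of ER-phagy. SEC61A1, the translocon channel, stood at 0.14 ± 0.05 and UAP1, of hexosamine synthesis, at -0.11 ± 0.04. MIA3, which loads large cargo such as collagen, stood at -0.25 ± 0.05 (adjusted p = 0.0813) and the vesicle SNARE gene BET1 at -0.17 ± 0.05. MIA3 passed with the mean over probe sets, without dim genes, with the trended prior and with array weights. RETREG3 and TEX264 stood at 0.14 ± 0.04 and 0.11 ± 0.05.

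Genes listed under the integrated stress response, which PERK shares with other kinases, made up 3 of the 4 rises. Of these 26 genes, 3 rose, or 11.5%, against 1.60% of all genes. The list was chosen with earlier results known, so the share is descriptive. The other 23 did not pass in either direction. By sign 12 of the 26 were higher and 14 lower, with a median of -0.00. NUPR1, a stress-induced chromatin protein, rose from 6.75 to 7.28, by 0.53 ± 0.06 (adjusted p = 0.00807). NFIL3, a bZIP repressor, rose by 0.32 ± 0.04 (adjusted p = 0.0132) and STC2, a secreted stanniocalcin, by 0.31 ± 0.05 (adjusted p = 0.0246). The next by p did not pass: CEBPB, a bZIP factor, stood at 0.37 ± 0.08 (adjusted p = 0.0690), VLDLR, a lipoprotein receptor, at 0.28 ± 0.06 (0.0800) and DDIT4, an inhibitor of mTORC1, at 0.19 ± 0.04 (0.0988). All 3 had higher, non-overlapping groups and passed without dim genes and with the trended prior. ATF4 itself stood at -0.01 ± 0.04, ASNS, the asparagine synthetase, at -0.00 ± 0.05, CHAC1, a glutathione-degrading enzyme, at 0.08 ± 0.05 and TRIB3, a pseudokinase, at 0.11 ± 0.05 (adjusted p = 0.386). These 7 were named after their values were seen.

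The fourth rise came from 17 other stress transducers. TXNIP, the thioredoxin inhibitor, went from 7.46 to 8.17, by 0.71 ± 0.09 (adjusted p = 0.00754). CLGN passed in all 6 fits that left out 1 array. The 5 calls outside the members did not: without 1 array between 0 and 3 of them passed, and none did without R1881 replicate 1. NUPR1 passed in 5 of 6 such fits and TXNIP in 4, while FKBP7 and STC2 passed in none (adjusted p up to 0.0841 and 0.116).

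The arrays were checked against markers of the labelled and of other cell types. The mesenchymal-state markers were all 8 above background, with VIM at 14.10 in vehicle. Called were 2 of them, both higher, SNAI2 from 5.96 to 7.49 and FN1 from 9.04 to 9.77. By sign 3 of the 8 were higher and 5 lower, with a median change of -0.04. Of 19 measured urothelial and epithelial markers 7 were above background. KRT18 fell from 10.75 to 10.38 and KRT7 rose from 5.43 to 5.83. Of the uroplakin genes, UPK1A at 5.03 and UPK3B at 5.34 in vehicle were just above it. GATA3, at 4.91 in vehicle and 5.02 with R1881, was above it only with R1881. FOXA1, at 5.01 in vehicle and 4.87 with R1881, was above it only in vehicle. UPK1B, UPK2 and UPK3A, and EPCAM and CDH1, were below it. Above background lay 3 of 10 fibroblast, 5 of 13 immune and endothelial and 2 of 10 professional secretory cell markers, against 11049 of all 18129 genes. The secretory markers MZB1, JCHAIN, AGR2 and BHLHA15 were below it in both groups. SDC1, at 10.01 in vehicle and 9.70 with R1881, was the only called one of that list (adjusted p = 0.0126). The only call of the immune and endothelial list was TEK, at 3.72 in vehicle and 5.0 with R1881. TEK was above the background level of 4.99 only with R1881, and only just. The part of such markers in the differences above was not tested.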

How the data were processed

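RNA from 3 vehicle and 3 R1881 cultures was hybridised to Affymetrix arrays, 1 array per culture. The deposited table holds log2 values to 2 decimals, and RMA is named in the submitters' processing notes; no version is named there. Of 49193 probe sets, 44898 had 1 gene symbol, 1825 several and 2470 none in the platform annotation. Each of 18129 genes was read on its set with the highest mean over the 6 arrays. The background level, 4.99, is the 90th percentile of 423 olfactory receptor and keratin-associated protein genes, and a gene counts as above it where a group mean is.

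Groups were compared with limma 3.58.1 (lmFit and eBayes) in R 4.3.3, with Benjamini-Hochberg adjustment over all genes at 0.05 and 95% confidence intervals. The code was tested on simulated data. Members and gene lists were chosen with earlier results of these data known. Array values were given for called members and the 4 members per role with the smallest p, changes for the others; of other pathway lists, values were given for called genes or, with none called, 2 by p. Outside this rule, values by array for HSPA5 and HYOU1, and 7 integrated stress response genes, were added. No batch information was used. Arrays give no read depth, so their number limits the precision. At most 9.02% of values were equal between any pair of arrays. Promoter windows and positions are from RefSeq, GRCh38.p14. Alternatives changed the probe set rule, normalization, centring, dim-gene filter, prior variance, array weights, replicate block and each array left out.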

Additional observations from a re-analysis of the deposited data

How the results depend on the processing

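CLGN passed, lower, under every alternative run, with an adjusted limma p between 3.21e-04 and 0.0369, and no called gene turned direction, while 14 uncalled members changed sign in at least 1 setting. The number of members called was 1 in the reported fit, 2 with the mean over probe sets (1 higher, ERO1A), 4 without dim genes (3 higher) and 7 with a trended robust prior (6 higher). Without 1 array it was 1 to 2, with 0 to 1 higher; the added call was DERL3 without R1881 replicate 3. The count of all genes called went from 438 to 757 without dim genes, 895 with the trended prior and 209 to 270 without 1 array. Calls among other pathway genes went from 5 to 9, 12 and 0 to 3 in the same settings. The median change of the members was 0.06, 0.0472 with the mean over probe sets, 0.0467 with centred arrays and 0.0533 to 0.075 without 1 array. The signs of 33 of 43 members held without any 1 array, and those of 29 in all settings run. The causes were not tested. The labels give replicate numbers only, and whether same-numbered cultures were handled together is not known here. Deviations of same-numbered arrays correlated at 0.0922, 0.0568 and 0.0327, and each array correlated best with its own number. With a replicate block 1 member was called, CLGN (adjusted p = 0.0209), and all genes called numbered 222 and 1 other pathway gene, TXNIP.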
